A study of Bos taurus with 22 samples.

Results

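The enzymes described here are 9 genes of glutamine, arginine and urea cycle metabolism (GLUL, CPS1, OTC, ASS1, ASL, ARG2, OAT, ALDH18A1 and ODC1), chosen by gene symbol and all found among the 27570 genes of the count table. They were measured by RNA sequencing in the jejunal mucosa of 22 Holstein steers aged 10 to 12 months, with 1 library per steer. Every steer received an abomasal infusion of raw corn starch at 3.94 g per kg body weight (BW) per d for 7 d, with a 2 by 2 arrangement of casein and glucagon-like peptide 2 (GLP-2), a gut hormone that promotes growth of the intestinal mucosa. Control steers (n = 5) received water in place of casein and injections of the bovine serum albumin (BSA) vehicle, GLP-2 steers (n = 5) received water and GLP-2 at 100 µg per kg BW per d, Casein steers (n = 6) received casein at 1.30 g per kg BW per d and BSA, and Casein + GLP-2 steers (n = 6) received both. The steers were arranged in 6 blocks of body weight. Because starch was infused in every steer, no value describes mucosa without it.

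Enterocytes, the absorptive cells of the villus, turn dietary glutamine and glutamate into citrulline, which passes to other organs for arginine synthesis. ALDH18A1 makes glutamate semialdehyde from glutamate, OAT turns it into ornithine, CPS1 makes carbamoyl phosphate from ammonia, and OTC joins ornithine and carbamoyl phosphate into citrulline. ASS1 and ASL convert citrulline to arginine, ARG2 is the mitochondrial arginase that splits arginine into ornithine and urea, ODC1 starts polyamine synthesis from ornithine, and GLUL makes glutamine from glutamate and ammonia.

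In the ARS-UCD1.2 assembly, the citrulline enzymes ALDH18A1 and OAT both lay on chromosome 26 (17088627 to 17129756 and 44044921 to 44064391, minus strand), OTC on chromosome X (104841981 to 104918525, minus strand) and CPS1 on chromosome 2 (98327892 to 98467680, plus strand). ASS1 (100770166 to 100822252) and ODC1 (87197374 to 87204771) lay on the plus strand of chromosome 11, ASL on chromosome 25 (27989110 to 27998697, minus strand), ARG2 on chromosome 10 (79498980 to 79534600, plus strand) and GLUL on chromosome 16 (63468038 to 63478788, minus strand). All were counted per gene. ASL overlapped CRCP on the other strand, and whether counting used strand is not given in the sources used here, while ARG2 and ODC1 each overlapped 1 small RNA gene with at most 17 and 37 counts in a library.

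Library totals ran from 8809666 to 28447810 counts, and the smallest count of any of the 9 genes was 39, for ARG2. The tissue carried its label: all 17 villus enterocyte markers, such as FABP2 and VIL1, were counted in every steer, and the hepatocyte markers AHSG, ALB, FGA and FGB were each at or below 0.65 CPM (counts scaled to a common library total), while FGG and TAT reached 38.4 CPM. The libraries differed in the level of cell type markers. A B cell follicle score, the mean log2 CPM of 11 marker genes, was 5.96 to 6.92 in 4 BSA steers (Control replicates 1, 3 and 5 and Casein replicate 3), 0.85 to 3.71 in the other 7 BSA steers and 0.37 to 2.47 in the 11 GLP-2-treated steers. In bulk mucosa, fewer cells of a type and less RNA per cell cannot be told apart.

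Per transcript length, OAT stood far above the other enzymes and ARG2 far below them. FPKM, a level scaled for transcript length that allows a rough comparison between genes, had a median over 22 steers of 848 for OAT, 210 for ODC1 and 198 for CPS1. The median FPKM was 116 for ALDH18A1, 104 for OTC, 22.7 for ASS1, 19.9 for GLUL, 15.3 for ASL and 3.68 for ARG2. RNA integrity varied between the samples of the study, and its part in these levels was not tested. Between neighbours in this order, log2(FPKM + 1) differed for 6 of the 8 pairs by a paired permutation test with Benjamini-Hochberg adjustment. ODC1 and CPS1 did not differ beyond their spread (adjusted p = 0.180, permutation test, higher ODC1 in 15 of 22 steers), and neither did ASS1 and GLUL (adjusted p = 0.775, permutation test, higher ASS1 in 12 of 22 steers). The step from GLUL to ASL was small but passed (adjusted p = 0.0133, permutation test, 17 of 22 steers). Within the arms this order was less firm. Among the GLP-2-treated steers GLUL over ASL was 0.24 on this scale (adjusted p = 0.328, permutation test) and ODC1 over CPS1 was reversed at -0.12, and among the BSA steers ALDH18A1 over OTC was 0.19 (adjusted p = 0.107, permutation test) and ASS1 over GLUL was reversed at -0.53. The citrulline-forming enzymes thus held 4 of the 5 highest places, and ASS1 and ASL lay well below them.

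**Figure D1:**
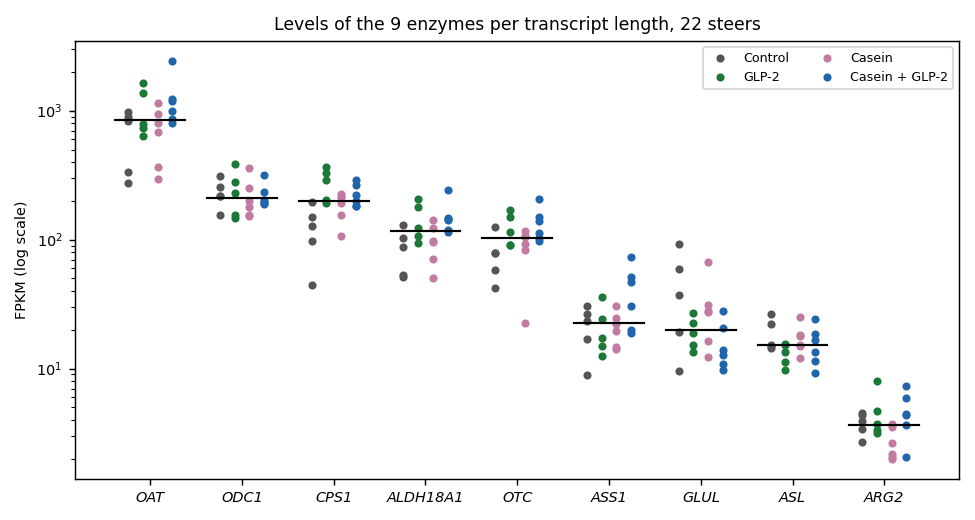
FPKM of the 9 enzymes on a log axis, 1 point per steer, coloured by treatment, with a bar at the median of 22 steers. OAT (median 848 FPKM) lies above the rest and ARG2 (3.68 FPKM) below, while GLUL is spread from 9.57 to 92.9 FPKM.

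The first comparison asked how GLP-2 changed these transcripts, with the 11 GLP-2-treated steers (GLP-2 and Casein + GLP-2) set against the 11 BSA steers. ALDH18A1 and CPS1 rose and GLUL fell, so 3 of the 9 enzymes passed an adjusted p of 0.05 in the edgeR quasi-likelihood test. Of all 13928 genes tested, 5.13% were called higher and 8.37% lower. OTC, OAT and ARG2 had positive log2 fold changes at an adjusted p between 0.05 and 0.1, and ASS1, ASL and ODC1 did not pass either limit. The median log2 fold change over the 9 enzymes was 0.59, against 0.01 over all genes tested. The fit behind these values left out the block of the study's design. With block as a term the 3 calls did not hold, as given below.

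ALDH18A1 read 299, 346, 170, 447 and 176 CPM in the Control steers and 371, 692, 328, 425 and 610 CPM in the GLP-2 steers. It ran from 171 to 487 CPM (median 334) in the Casein steers and from 389 to 784 CPM (median 496) in the Casein + GLP-2 steers. All 11 GLP-2-treated steers lay above the median of the BSA steers and 6 lay above the highest of them, although the groups overlapped. The log2 fold change was 0.70 (SE 0.21, a 1.63-fold increase, adjusted p = 0.0326, edgeR).

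CPS1, the enzyme that brings ammonia into the cycle, read 736, 553, 245, 1120 and 822 CPM in the Control steers and 1672, 2029, 1125, 1177 and 1843 CPM in the GLP-2 steers. These treatments did not overlap, as was so for 1.75% of the 15086 genes of the model of 4 treatments. The Casein steers, at 598 to 1290 CPM (median 1167), and the Casein + GLP-2 steers, at 1044 to 1640 CPM (median 1197), did overlap. Over both casein levels the log2 fold change was 0.66 (SE 0.22, a 1.58-fold increase, adjusted p = 0.0477, edgeR), and all 11 GLP-2-treated steers were above the BSA median.

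GLUL, the glutamine-forming enzyme, moved the other way. It read 113, 28.6, 271, 58.0 and 173 CPM in the Control steers and 58.1, 44.8, 69.2, 83.1 and 40.4 CPM in the GLP-2 steers, ran from 36.9 to 200 CPM (median 82.7) in the Casein steers and from 29.5 to 84.4 CPM (median 39.2) in the Casein + GLP-2 steers. Of the GLP-2-treated steers 1 of 11 was above the BSA median, and 5 BSA steers lay above every GLP-2-treated steer. GLUL fell by 1.04 on the log2 scale (SE 0.32, 0.485-fold, adjusted p = 0.0381, edgeR).

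OTC and OAT, which make citrulline and ornithine, had log2 fold changes near that of ALDH18A1. OTC read 168, 165, 86.7, 268 and 120 CPM in Control, 195, 354, 197, 249 and 318 CPM in GLP-2, 47.5 to 252 CPM (median 213) in Casein and 208 to 418 CPM (median 269) in Casein + GLP-2 steers. All 11 GLP-2-treated steers exceeded the BSA median, and the log2 fold change was 0.66 (SE 0.23, adjusted p = 0.0548, edgeR). OAT read 2136, 2259, 834, 2500 and 686 CPM in Control, 2034, 4078, 1653, 1918 and 3454 CPM in GLP-2, 748 to 2967 CPM (median 1925) in Casein and 2056 to 5884 CPM (median 2833) in Casein + GLP-2 steers. Its log2 fold change was 0.76 (SE 0.28, adjusted p = 0.0706, edgeR), with 8 of 11 GLP-2-treated steers above the BSA median.

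The enzymes of arginine formation and use gave no call. ARG2, the scarcest of the 9, had a log2 fold change of 0.54 (SE 0.22, adjusted p = 0.0910, edgeR), at 4.47 to 16.7 CPM in the GLP-2-treated and 4.15 to 9.44 CPM in the BSA steers. ASS1 had a log2 fold change of 0.59 (SE 0.28, adjusted p = 0.134, edgeR) and ASL one of -0.30 (SE 0.17, adjusted p = 0.203, edgeR). ODC1 had medians of 457 CPM in the GLP-2-treated and 476 CPM in the BSA steers, with a log2 fold change of 0.05 and an interval of ± 1.96 SE from -0.31 to 0.42.

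**Figure D2:**
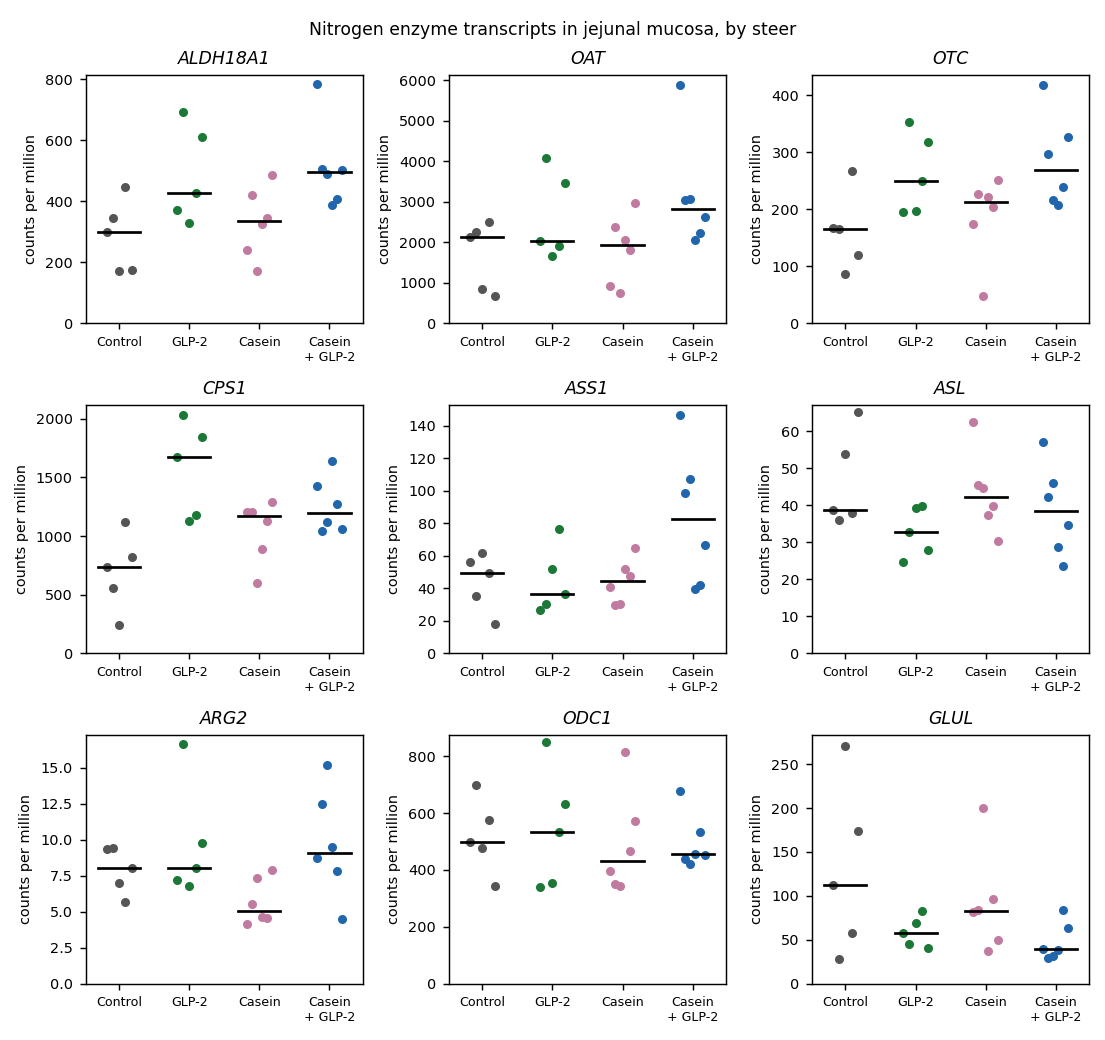
CPM of each enzyme in every steer by treatment, with a bar at the treatment median. CPS1 separates GLP-2 from Control steers, 3 Casein + GLP-2 steers hold the highest ASS1 values, and the highest GLUL values are Control and Casein steers.

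These calls moved with markers of several cell types. All 17 villus enterocyte markers tested were higher in the GLP-2-treated steers, 4 of them called, and their summed level ran from 19216 to 75052 CPM there against 2802 to 54747 CPM in the BSA steers. All 10 B cell follicle markers tested were lower, 9 of them called, with sums of 34.3 to 87.8 CPM against 53.0 to 2214 CPM, and all 18 cell division markers were lower, 9 of them called. Plasma cell markers had lower values for 5 of 5 genes, 3 of them called (median log2 fold change -1.78, sums of 53.7 to 1905 CPM against 69.6 to 5473 CPM). Smooth muscle markers had lower values for 7 of 7 genes (median -1.40), endothelial markers for 5 of 5 (median -1.05) and stromal markers for 6 of 6 (median -0.57), with 0 called in edgeR in each of these 3 lists. Of these lists, the smooth muscle score was tested for correlation with the enzymes, as given below. The plasma cell, endothelial and stromal scores were not tested against them. The part of these cells in the GLP-2 differences of the enzymes was not tested. The 4 BSA steers of high follicle score held 113 to 271 CPM of GLUL, and no other steer exceeded 96.6 CPM. In the same 4 steers ALDH18A1 was 170 to 299 CPM and CPS1 245 to 822 CPM, both below every GLP-2-treated steer.

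With the block of body weight as a term in the edgeR fit, 0 of the 9 enzymes were called, at an adjusted p of 0.0521 for ALDH18A1 (log2 fold change 0.73), 0.0751 for CPS1 (0.67) and 0.0618 for GLUL (-0.87), where 689 of all genes were called. Without those 4 steers of high follicle score, an alternative chosen after seeing the data, 0 of the 9 enzymes and 0 of all genes were called by edgeR, with 1927 genes at an unadjusted p of 0.05 or less. The log2 fold change was then 0.43 for ALDH18A1 (adjusted p = 0.359), 0.40 for CPS1 (adjusted p = 0.368) and -0.24 for GLUL (adjusted p = 0.644). With the villus score as a covariate it was 0.17 for ALDH18A1, 0.50 for CPS1 and 0.03 for GLUL, and with the follicle score 0.22, 0.29 and 0.26, again with 0 enzymes and 0 of all genes called. Both scores differed between the arms, with means in the GLP-2-treated and BSA steers of 10.1 and 8.72 (villus) and 1.24 and 3.76 (follicle). A covariate of this kind can take up part of the GLP-2 difference itself. These fits therefore cannot tell cell makeup and GLP-2 apart. DESeq2 on all 22 steers called 5 of the 9 enzymes, adding OAT (adjusted p = 0.0333) and OTC (adjusted p = 0.0289), where it called 22.4% of genes. At an unadjusted p of 0.05 or less, 7 of the 9 passed, against 34.6% of all genes. Leaving out 1 steer at a time, the adjusted p in edgeR reached 0.0646 for ALDH18A1 (without Casein + GLP-2 replicate 1), 0.0930 for CPS1 (without GLP-2 replicate 3) and 0.0860 for GLUL (without Control replicate 3), and they were called in 13, 7 and 11 of 22 such fits.

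**Figure D3:**
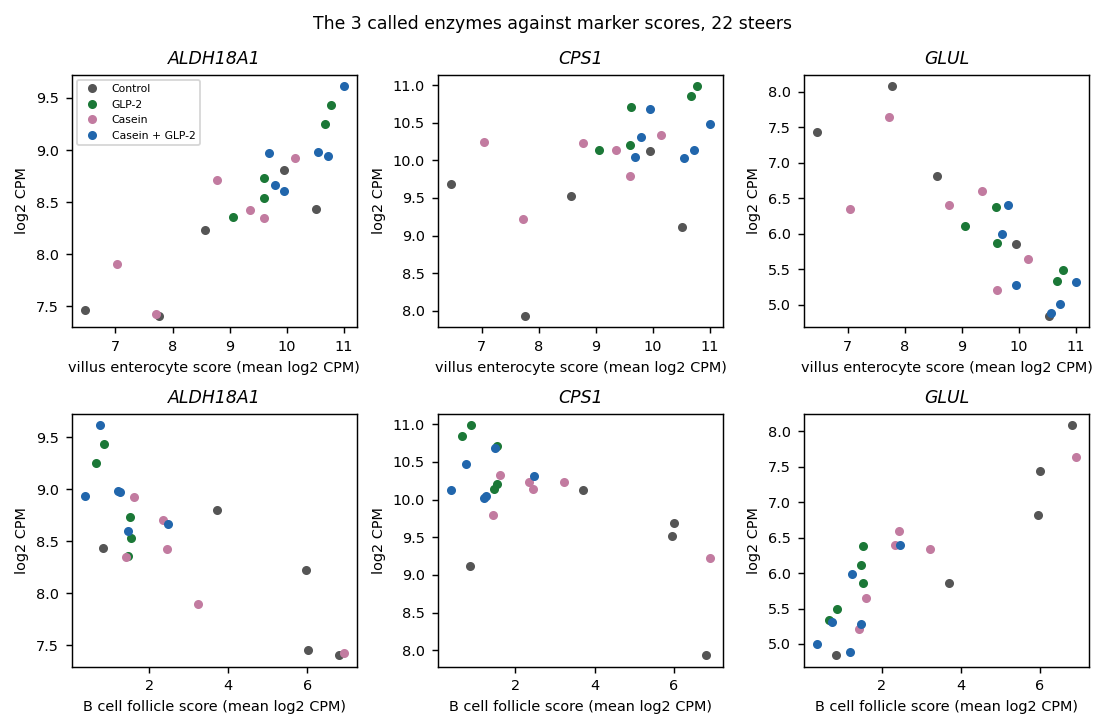
Log2 CPM of ALDH18A1, CPS1 and GLUL against the villus enterocyte score (top) and the B cell follicle score (bottom), both in mean log2 CPM, 1 point per steer coloured by treatment. ALDH18A1 climbs and GLUL falls with the villus score in both GLP-2 and BSA steers, and 4 BSA steers sit apart at follicle scores of 5.96 to 6.92.

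Across the 22 steers only some of the enzymes formed a tight set. No pair holding ASS1, ASL, ARG2 or ODC1 passed the adjusted permutation test on rho. ALDH18A1, OTC and OAT rose and fell together, with r = 0.915 and rho = 0.927 for ALDH18A1 with OTC, r = 0.969 and rho = 0.920 for ALDH18A1 with OAT, and r = 0.863 and rho = 0.825 for OAT with OTC (adjusted permutation p of rho at most 0.000240). Within the GLP-2-treated steers r was 0.923, 0.969 and 0.856, and within the BSA steers 0.872, 0.960 and 0.801, in the same order. Leaving out the 2 steers farthest from the median of the first gene of each pair gave r = 0.936, 0.956 and 0.851.

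CPS1 followed this set loosely. Its r was 0.717 with ALDH18A1 (rho = 0.583, adjusted permutation p of rho = 0.0301) and 0.714 with OTC (rho = 0.571, adjusted permutation p of rho = 0.0351), and r was 0.344 and 0.180 within the GLP-2-treated and 0.645 and 0.681 within the BSA steers, a difference that was not tested. Without the 2 farthest steers r was 0.557 and 0.692. With OAT, CPS1 had r = 0.596 and rho = 0.441, which did not pass (adjusted permutation p of rho = 0.104). GLUL went against ALDH18A1 (r = -0.766, rho = -0.610, adjusted permutation p of rho = 0.0212) and OAT (r = -0.778, rho = -0.673, adjusted permutation p of rho = 0.00774). In all, 7 of 36 pairs of enzymes passed on rho, 5 of them positive, and the share over pairs of other genes was not computed.

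The villus enterocyte score moved with several of the enzymes in both arms. OAT had r = 0.920 and rho = 0.893 with it (adjusted permutation p of rho = 9.0e-05), and r = 0.915 within the GLP-2-treated and 0.891 within the BSA steers. ALDH18A1 had r = 0.889 and rho = 0.866, and GLUL r = -0.830 and rho = -0.811 (adjusted permutation p of rho = 9.0e-05 for both). ALDH18A1 held r = 0.877 and 0.828 within the arms and GLUL -0.767 and -0.783, and without the 2 steers farthest from the median score r was 0.885 for OAT and ALDH18A1 and -0.902 for GLUL. CPS1 was less tied to it (r = 0.493, rho = 0.470, adjusted permutation p of rho = 0.0455), with r = 0.339 and 0.219 within the arms. The smooth muscle score ran the other way, with r = 0.727 and rho = 0.737 for GLUL (adjusted permutation p of rho = 0.00090) and r = -0.698 and rho = -0.718 for OAT (adjusted permutation p of rho = 0.00094). Within the GLP-2-treated and BSA steers r was 0.700 and 0.709 for GLUL and -0.481 and -0.767 for OAT, and without the 2 steers farthest from the median score 0.651 and -0.613. Of the 4 scores GLUL was tied most to the B cell follicle score (r = 0.886, rho = 0.844, adjusted permutation p of rho = 9.0e-05). Within the GLP-2-treated and BSA steers that r was 0.727 and 0.910. With the cell division score GLUL had r = 0.795 and rho = 0.747, but r was 0.271 within the GLP-2-treated and 0.891 within the BSA steers. ALDH18A1 and OTC had r = -0.822 and -0.801 with the follicle score (rho = -0.735 and -0.601). Within the GLP-2-treated and BSA steers that r was -0.637 and -0.780 for ALDH18A1 and -0.414 and -0.758 for OTC. These differences between arms were not tested. Counting these 4 marker scores, 22 of 36 relations passed on rho, and the share over all genes was not computed. All of these values share the library of the steer they come from.

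ASL gave correlations of opposite sign in the arms. Within the BSA steers its r was -0.925 with the villus score and -0.559 with ASS1, the enzyme before it in arginine synthesis, and within the GLP-2-treated steers these were 0.379 and 0.891. The differences between arms were not tested.

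The genes most like each enzyme, by Spearman's rho of log2 CPM over 22 steers among 13245 other named genes, are given as a description. SMPDL3A (0.962), IGSF5 (0.955) and ACTR10 (0.942) were most like OAT, and SLC39A14 (0.944), BBOX1 (0.929) and TMEM135 (0.928) most like ALDH18A1. For OTC they were PREPL (0.930), ALDH18A1 itself (0.927) and ALDH1A1 (0.909), and for CPS1 TMEM164 (0.813), KLF5 (0.806) and IARS2 (0.802). GLUL was most like LMO2 (0.959), TNFRSF13B (0.929), a receptor of B cells, and SCD5 (0.915). ASS1 was most like LDHA (0.877), the lactate dehydrogenase subunit, YPEL3 (0.809) and PFKP (0.794), a glycolytic phosphofructokinase. ODC1 was most like TDP2, PRELID1 and CYCS (0.854 each), ASL like ZNF777 (0.833), XAB2 (0.754) and ZNF786 (0.727), and ARG2 like SLCO4A1 (0.766), CEP76 (0.755) and IFNAR1 (0.754).

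The second comparison asked whether casein changed the enzymes, with 12 casein steers (Casein and Casein + GLP-2) set against 10 water steers. No enzyme was called by edgeR: 0 of 9 passed the adjusted test, where 0% of the 14096 genes did, 0 of 9 had an unadjusted p of 0.05 or less (3.36% of genes did), and DESeq2 called 0 of 9 (0.0355% of genes). ASS1 had the largest of the 9 log2 fold changes, 0.53 (SE 0.28, adjusted p = 0.994, edgeR), at 29.6 to 147 CPM in the casein and 18.4 to 76.6 CPM in the water steers. Without Casein + GLP-2 replicate 1 it was 0.32. GLUL followed at -0.45 (SE 0.38), which leaving out 1 steer moved to between -0.73 (without Casein replicate 3) and -0.096 (without Control replicate 3). The other 7 lay between -0.20 and 0.21. The intervals of ± 1.96 SE ran from -0.47 to 0.54 for CPS1 and from -0.35 to 0.61 for ALDH18A1.

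**Figure D4:**
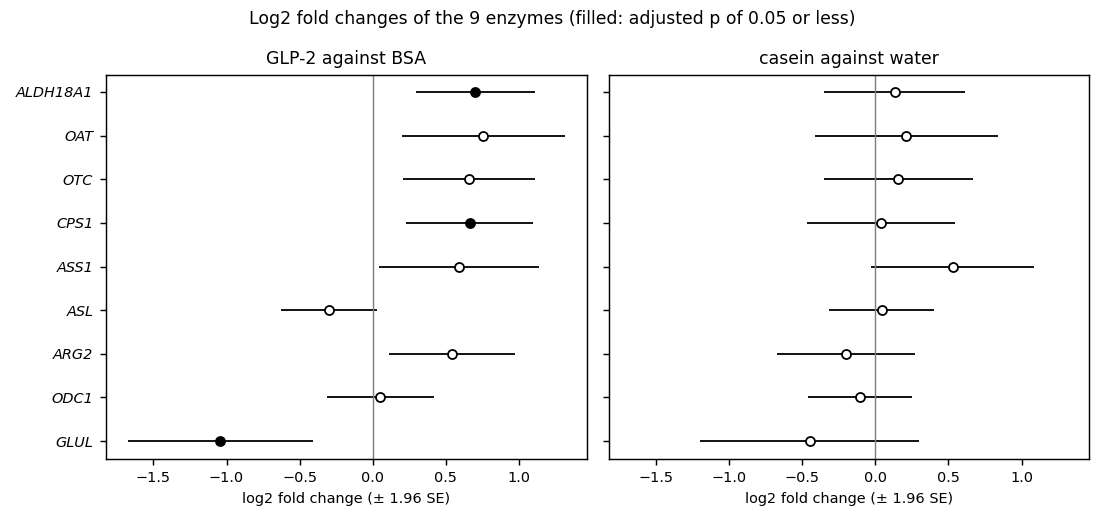
Log2 fold change of each enzyme for GLP-2 against BSA (11 and 11 steers) and casein against water (12 and 10 steers), with bars of ± 1.96 SE and filled points where the adjusted p was 0.05 or less. Filled points are ALDH18A1, CPS1 and GLUL in the GLP-2 comparison, and all casein points are open.

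The 4 treatments were also compared in 1 model of all 22 steers, which tested 15086 genes. Several of these comparisons share steers, so they are not independent of each other or of the pooled ones. For GLP-2 against Control, edgeR called 0 of 9 enzymes (0% of genes), 3 had an unadjusted p of 0.05 or less (13.9% of genes), and DESeq2 called 1, CPS1 (2.46% of genes). CPS1 had a log2 fold change of 1.17 there (SE 0.31, 2.26-fold, adjusted p = 0.162, edgeR), the largest among the 9.

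For Casein + GLP-2 against Casein, edgeR called 0 enzymes (0% of genes), 4 had an unadjusted p of 0.05 or less (24.1% of genes), and DESeq2 called 0 (5.91% of genes). CPS1 had a log2 fold change of 0.26 (SE 0.28). GLUL had -0.93 (SE 0.44, adjusted p = 0.200, edgeR). ASS1 had 0.92 (SE 0.34, adjusted p = 0.140, edgeR), and 4 of 6 Casein + GLP-2 steers lay above all Casein steers.

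For Casein + GLP-2 against Control, edgeR called 0 enzymes where it called 1.24% of genes higher and 3.88% lower. GLUL (log2 fold change -1.43, adjusted p = 0.0647), CPS1 (0.86, adjusted p = 0.0808) and ALDH18A1 (0.83, adjusted p = 0.0864) fell short in edgeR and were the 3 that DESeq2 called (13.5% of genes). At an unadjusted p of 0.05 or less 6 passed (27.7% of genes).

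For Casein against Control, edgeR called 0 enzymes (0% of genes), 0 had an unadjusted p of 0.05 or less (5.66% of genes) and DESeq2 called 0 (0.0663% of genes). CPS1 was nearest, with a log2 fold change of 0.60 (SE 0.30, adjusted p = 0.890, edgeR). For Casein + GLP-2 against GLP-2, edgeR called 0 (0% of genes), 1 had an unadjusted p of 0.05 or less, ASS1 (2.64% of genes), and DESeq2 called 0 (0.0332% of genes).

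The interaction asked whether the GLP-2 difference changed with casein. edgeR called 0 of 9 enzymes (0% of genes), 1 had an unadjusted p of 0.05 or less (4.28% of genes), and DESeq2 called 0 (0.0133% of genes). That 1 was CPS1, whose GLP-2 difference was smaller with casein by 0.92 on the log2 scale (interaction -0.92, SE 0.41, adjusted p = 0.996, edgeR). ASS1 had an interaction of 0.92 (SE 0.50, adjusted p = 0.996, edgeR): it read 56.5, 35.6, 61.8, 49.4 and 18.4 CPM in Control and 26.7, 30.7, 51.9, 76.6 and 36.3 CPM in GLP-2 steers, 29.6 to 64.7 CPM (median 44.3) in Casein and 39.9 to 147 CPM (median 82.7) in Casein + GLP-2 steers. Neither interaction passed the adjustment.

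Around these enzymes, 44 other genes of the same pathways were listed and found, of which 39 passed the filter on low counts. GLP-2 against BSA called 3 higher and 3 lower in edgeR, at the background of 5.13% and 8.37% given above, and the median log2 fold change of the 39 was -0.17. SLC25A15, the mitochondrial carrier that exchanges ornithine for citrulline, rose most clearly (log2 fold change 1.00, SE 0.23, adjusted p = 0.0202, edgeR), from 8.29 to 47.2 CPM in the BSA to 35.8 to 79.0 CPM in the GLP-2-treated steers. GPT2, a mitochondrial alanine transaminase (1.15, SE 0.32, adjusted p = 0.0284, edgeR), and GFPT1, which uses glutamine to make hexosamines (0.92, SE 0.30, adjusted p = 0.0436, edgeR), also rose.

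SRM, spermidine synthase, fell by 1.27 on the log2 scale (SE 0.31, adjusted p = 0.0218, edgeR), from 7.07 to 45.0 CPM in the BSA to 3.90 to 13.2 CPM in the GLP-2-treated steers. PPAT, which uses glutamine at the first step of purine synthesis, fell by 0.82 (SE 0.24, adjusted p = 0.0339, edgeR), and DDAH2, which breaks down methylarginines, by 0.94 (SE 0.30, adjusted p = 0.0395, edgeR). NAGS, which makes the activator of CPS1, had a log2 fold change of 0.70 (SE 0.26, adjusted p = 0.0703, edgeR).

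The calls by role are given as a description, where 5.13% of all genes were called higher and 8.37% lower. The partners and carriers of the urea cycle had 1 of 4 called higher and the transaminases 1 of 4 higher. Of the glutamine users and suppliers 1 of 10 was called higher and 1 lower, of the polyamine genes 1 of 9 lower, of the arginine users 1 of 7 lower, and of the 5 proline and glutamate semialdehyde genes none in edgeR. Among those 5, 4 had an unadjusted p of 0.05 or less and DESeq2 called 2. Over all 39 these counts were 17 and 10, where 34.6% and 22.4% of all genes passed. Casein against water called 0 of the 39 in edgeR (0% of genes) and 0 in DESeq2 (0.0355% of genes), with 2 at an unadjusted p of 0.05 or less (3.36% of genes).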

How the data were processed

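RNA from the jejunal mucosa of 22 steers was sequenced as strand-specific poly(A) libraries. The authors aligned reads to ARS-UCD1.2 with HISAT2 2.0.5, assigned them with featureCounts 1.5.0-p3 and deposited raw counts per gene without normalization. The authors also deposited FPKM, which were found to carry 1 scale per steer that followed median-of-ratios size factors rather than library totals. A further GLP-2 steer of the study was not analysed here. The members and lists were chosen with earlier results of these data known.

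Counts were analysed in R 4.3.3 with edgeR 4.0.16 (filterByExpr with a minimum count of 10, TMM factors, quasi-likelihood test, Benjamini-Hochberg adjustment over all genes tested, no block). The 2 pooled comparisons used a model of 1 factor and the others a model of 4 treatments. DESeq2 1.42.0 and limma 3.58.1 on log2(FPKM + 1) were alternatives. CPM used TMM-scaled totals, log2 CPM a prior count of 2. Standard errors were derived from the fold change and the F statistic. Correlations used 100000 permutations, and level differences 100000 sign flips. Named genes were all members, pathway genes past an adjusted p of 0.05 in a pooled comparison, and the 3 most alike genes of each member, and the other pathway genes and all markers named were chosen after their values were seen. The pooled edgeR, DESeq2 and limma fits and the edgeR fits of the 4 treatments were tested on simulated data. The other fits, among them those with a block or covariate, were not. Steers are separate animals, each sequenced once, and no pair of libraries within a treatment was identical. Low counts limit ARG2 most. Some single pathway genes are not reported here.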

Additional observations from a re-analysis of the deposited data

Results flagged for a closer look

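Of 36 sets of values (9 enzymes in 4 treatments), 2 held a steer far from the others by Dixon's criterion, of which chance gives about 1 in 20. ALDH18A1 in Casein + GLP-2 replicate 1 was 784 CPM, the next highest steer of that treatment being at 506 CPM. OTC in Casein replicate 3 was 47.5 CPM, the next lowest being at 175 CPM. Casein replicate 3 also had the highest B cell follicle score of all steers, 6.92, whose part in the OTC value was not tested.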

How the results depend on the processing

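For GLP-2 against BSA, 3 enzymes and 1881 genes (715 higher, 1166 lower) were called. DESeq2 called 5 and 2999, limma on log2(FPKM + 1) over all genes 1 and 699, and the follicle covariate, the villus covariate and the removal of 4 BSA steers of high follicle score 0 and 0. limma on genes of at least 0.5 FPKM called 1176 higher and 817 lower. With the replicate block as a term 0 enzymes and 689 genes were called (adjusted p 0.0521 for ALDH18A1, 0.0751 for CPS1 and 0.0618 for GLUL). The study assigned treatments at random within blocks of body weight. Same-block deviations correlated at -0.464 to 0.387 over 30 pairs (mean 0.0331). Over 151 pairs of other blocks and treatments the mean was -0.00641. Of 22 steers 5 correlated best with a steer of their own block. Block was thus a factor of the study's design, which these values do not change. The main fit left it out. Leaving out each steer gave 0 to 5 enzymes and 634 to 3516 genes, with ALDH18A1 called in 13 of 22 fits, GLUL in 11 and CPS1 in 7.

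Reversed log2 fold changes for GLP-2 against BSA were GLUL at 0.26 (follicle covariate) and 0.029 (villus covariate), OAT at -0.036 (villus covariate), and ODC1 at -0.22 (follicle), -0.35 (villus), -0.095 (4 steers removed), -0.019 (upper quartile factors) and -0.067 to 0.12 (each steer left out). For casein against water, DESeq2 called 5 genes, and the follicle covariate reversed ALDH18A1 (-0.054), CPS1 (-0.050), OAT (-0.058) and OTC (-0.096); leaving out each steer gave -0.023 to 0.26 for ALDH18A1, -0.036 to 0.16 for ASL, -0.082 to 0.16 for CPS1 and -0.021 to 0.35 for OAT. The follicle covariate also reversed ALDH18A1 (-0.012) and GLUL (0.85) in GLP-2 against Control, where DESeq2 called 1 enzyme, and GLUL (0.49), OAT (-0.11) and OTC (-0.18) in Casein + GLP-2 against Control, where edgeR called 0 enzymes and 773 genes, DESeq2 3 and 2036, a minimum of 10 counts in every steer 1 and 1216 (of 11371), and fits leaving out each steer 0 to 3 and 0 to 3449. The villus covariate reversed GLUL (0.065) in Casein + GLP-2 against Casein. Among levels, within BSA steers ALDH18A1 over OTC was 0.19 (adjusted permutation p = 0.107) and ASS1 over GLUL reversed to -0.53, and within GLP-2-treated steers GLUL over ASL was 0.24 (adjusted permutation p = 0.328) and ODC1 over CPS1 reversed to -0.12. The cause of these changes was not tested.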
